A study of Homo sapiens with 7 samples.

Results

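The first 73 Mb of chromosome 12 formed a segment in which H3K27ac HiChIP loops of Ishikawa cells were dense, and they are described here against the rest of that chromosome. HiChIP joins the ends of DNA that lie together in the nucleus and pulls down the joined fragments with an antibody, here to acetylation of lysine 27 of histone H3, a mark of active promoters and enhancers. A loop was a pair of different anchors on 1 chromosome, each anchor being a stretch of restriction fragments, and its value was the count of read pairs that join them. A loop belonged to the segment when the midpoints of both anchors lay below 73 Mb on hg19. The segment held 17565 of the 20393 Ishikawa loops on chromosome 12 and of 163530 in that list, 1345 of 42027 T-47D loops and 4250 of 149226 LNCaP loops. The segment was chosen by its Ishikawa loop density in these same data, so its density, and every other Ishikawa measure of the same loops, is a description with no test.

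The study compared contacts in Ishikawa cells (an endometrial adenocarcinoma line, 4 samples), T-47D cells (a breast ductal carcinoma line, 1 sample) and LNCaP cells (a prostate carcinoma line, 2 samples). The Ishikawa cells had been given the vehicle DMSO (2 samples) or 10 nM 17β-estradiol (2 samples) for 1 h, and the labels give no treatment for the other samples. Ishikawa chromatin was cut with DpnII and that of T-47D and LNCaP with MboI, sonication and read length followed the same split, and depth differed between the lists, so none of these can be told apart from the cell line. There was 1 list per cell line, and the totals were 1040329 Ishikawa, 351260 T-47D and 1805322 LNCaP read pairs, so no value has a replicate error and intervals, all at 95%, cover counting error only. The Ishikawa list was made of 4 separately sorted parts that no source assigns to samples, so DMSO and estradiol were not compared.

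As background, an enhancer is a stretch of DNA that raises transcription of a gene from a distance, and acetylated distal regions that contact a promoter are candidate enhancers of that gene. Both DpnII and MboI cut at GATC, so the anchors begin and end at that sequence. The segment covers the short arm of chromosome 12, its centromere and the long arm as far as the gene TRHDE. It carries the HOXC cluster of body-plan regulators, the type II keratins, the natural killer complex and bitter taste receptor families and growth regulators such as CDK4 and MDM2.

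The cut sites at 3 anchor edges are shown because they belong to the last Ishikawa loop wholly inside, the first wholly outside and the most connected Ishikawa anchor. Capitals mark GATC, and sequences are from GRCh37.

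End of the last anchor of a loop inside the segment (chr12:72955654-72955713, plus strand): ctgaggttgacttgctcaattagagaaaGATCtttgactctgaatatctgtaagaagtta

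Start of the first anchor of a loop outside it (chr12:73131928-73131987, plus strand): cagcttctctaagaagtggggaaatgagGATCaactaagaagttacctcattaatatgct

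End of the anchor over BMAL2 (chr12:27542247-27542306, plus strand): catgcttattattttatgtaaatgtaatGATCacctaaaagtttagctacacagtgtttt

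For all 6432 Ishikawa anchors on chromosome 12, the written start was 3 above the position of the first base of a GATC. The base after each anchor's end lay 2 bases after the first base of one. Starts are taken here as written in the lists, which may count from 0, and not as first bases. Both offsets were 0 for all 1028 T-47D and all 2205 LNCaP anchors. The lists therefore wrote the same cut sites with a shift of 2 or 3 bases. GATC itself was as frequent in the segment, at 2.52 per kb, as in the rest of the chromosome, at 2.57 per kb.

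Along the segment, Ishikawa had 121 loops or more in each of 68 bins of 1 Mb with at least 0.9 Mb of known sequence, whereas T-47D and LNCaP had bins without a loop. Ishikawa had 252 loops per Mb of known sequence in the segment against 46.6 in the rest of the chromosome, a ratio of 5.39, T-47D had 19.3 against 16.9 (ratio 1.14) and LNCaP 60.9 against 55.4 (ratio 1.10). The segment makes up 53.5% of the known bases of chromosome 12. It held 86.1% (85.7 to 86.6) of the Ishikawa loops on the chromosome, 56.8% (54.8 to 58.8) of the T-47D loops and 55.9% (54.7 to 57.0) of the LNCaP loops. In read pairs, Ishikawa had 1875 per Mb in the segment and 278 per Mb outside. Pairs of an anchor with itself, which are no loops here, gave 598 Ishikawa read pairs per Mb inside and 145 outside, against 144 and 134 in T-47D, and the LNCaP list held none. Their part in the loop density was not tested.

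**Figure D1:**
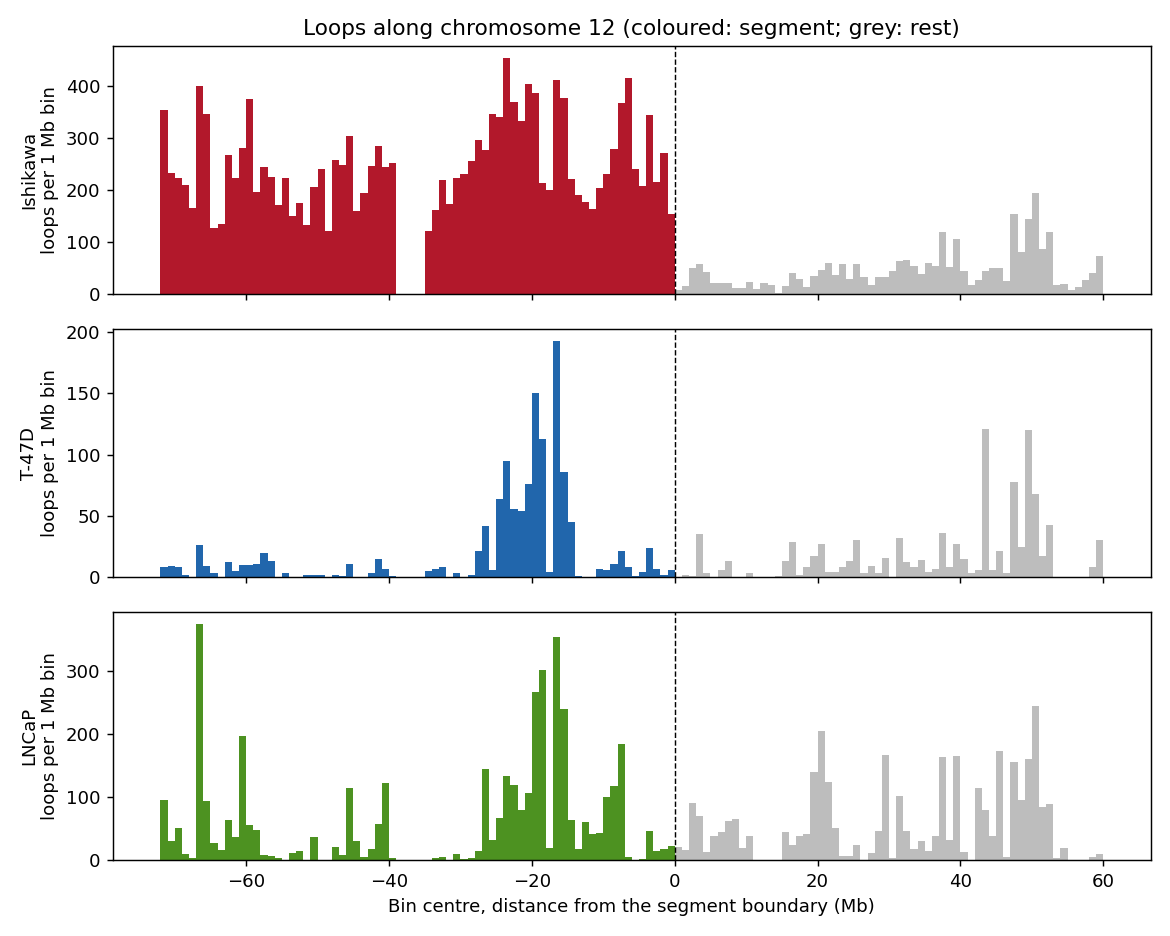
Loops per bin of 1 Mb along chromosome 12 in Ishikawa, T-47D and LNCaP, by distance of the bin centre from the segment boundary in Mb; coloured bars are the segment and grey bars the rest, with bins of under 0.9 Mb known sequence left out. Ishikawa bins inside lie between 121 and 455 loops, while T-47D and LNCaP bins inside start at 0.

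In 68 bins of 1 Mb inside the segment, Ishikawa had a lowest count of 121 loops, a median of 232.5 and a highest of 455, with a coefficient of variation of 0.330. The 60 bins outside ran from 2 through a median of 37.5 to 195, with a coefficient of 0.823. T-47D ran from 0 through 6.5 to 193 inside, with a coefficient of 1.86 and 12 bins without a loop. LNCaP ran from 0 through 28.5 to 374, with a coefficient of 1.37 and 3 bins without a loop. The lowest Ishikawa bin, at 24000001 to 25000000, had 121 loops where T-47D and LNCaP had 0 each. The highest, at 49000001 to 50000000, holds 32 protein-coding genes and had 455 loops in Ishikawa, against 95 in T-47D and 133 in LNCaP. In the 5 bins of the segment with no T-47D loop and at most 3 LNCaP loops, Ishikawa still had 121 to 231 loops (median 171), against 8 to 44 (median 18) in 7 such bins outside.

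Stretches without genes were dense as well. In the 4 bins of the segment without a protein-coding gene, Ishikawa had 163 to 241 loops with a median of 174, and in 5 such bins outside it had 7 to 22 with a median of 18. In the 16 bins of the segment with 15 genes or more the Ishikawa median was 343 loops, and in 5 such bins outside it was 145. T-47D medians rose from 0 in bins of the segment without genes to 55 in those with 15 or more, and LNCaP medians from 22.5 to 100, although LNCaP fell to 8 in bins with 1 to 4 genes. Across the bins of the segment, Spearman's rho between loops and genes was 0.486 in Ishikawa, against 0.722 in T-47D and 0.625 in LNCaP. These are relations across neighbouring bins that share loops of 1 list, given as descriptions. Ishikawa and T-47D bins ranked alike inside with a rho of 0.694 and outside with 0.728, and Ishikawa and LNCaP bins with 0.574 and 0.549. Within the segment, bins with many Ishikawa loops thus tended to have more loops in the other lists as well.

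**Figure D2:**
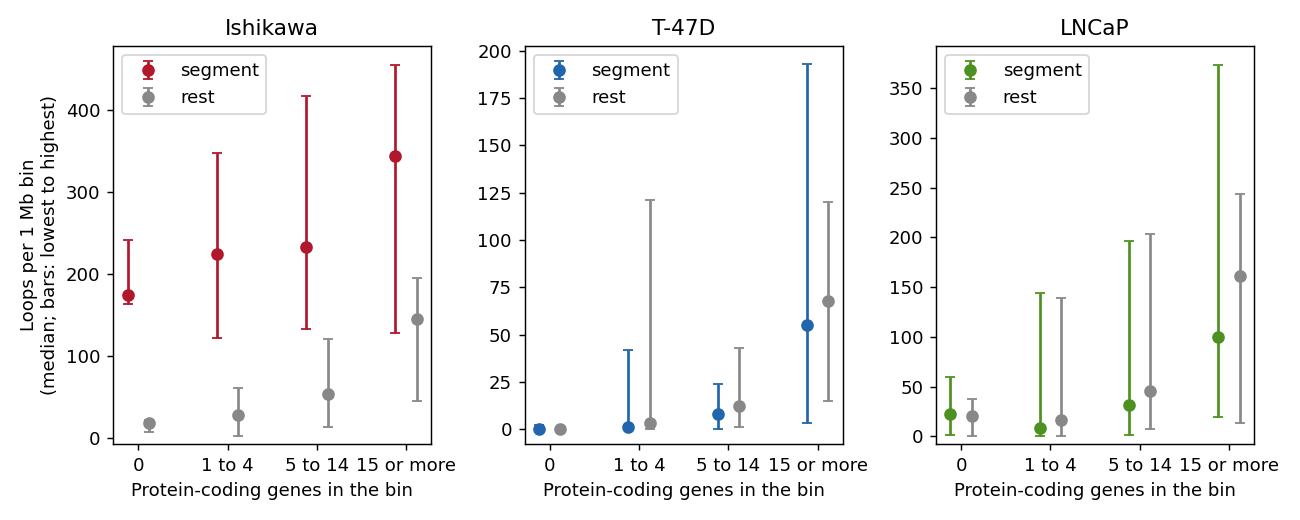
Loops per 1 Mb bin for bins with 0, 1 to 4, 5 to 14 and 15 or more protein-coding genes; points are medians and bars run from the lowest to the highest bin, coloured for the segment and grey for the rest. In Ishikawa the gene-free bins of the segment (163 to 241 loops) lie above the gene-free bins of the rest (7 to 22), and in T-47D and LNCaP the ranges of both sides overlap.

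Both arms took part. Ishikawa had 232 loops per Mb on the short arm and 270.2 on the long arm up to the boundary. T-47D had 6.25 and 32.1, and LNCaP 46.5 and 75, so in those lines the segment's loops lay more on the long arm, where the keratin and HOXC clusters are. The known sequence is broken at the centromere from 34856695 to 37856694. Ishikawa had 3 loops that joined the arms across it, with 13 read pairs in all, and T-47D and LNCaP had 0. The strongest of the Ishikawa loops across it joined 34182750 to 34192801 with 38722725 to 38727694 by 7 read pairs found in 2 parts. The longest LNCaP loop on chromosome 12 spanned 1994 kb, less than the break at the centromere, so the LNCaP 0 is not a comparison.

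The density ended in a step shortly before 73 Mb, within TRHDE, which encodes an enzyme that degrades thyrotropin-releasing hormone. In bins of 100 kb Ishikawa had 26 loops at 500 kb to 400 kb before the boundary, then 6, 4, 0 and 1 in the next bins up to it. The first 5 bins beyond it had 0, 2, 0, 0 and 1. The last Mb inside held 154 Ishikawa loops and the first Mb outside 7, and the last 5 Mb held 1194 against 172. LNCaP had 23 and 21 loops in those single Mb, and 102 and 210 over 5 Mb, and T-47D had 6 and 0, and 43 and 41. Over 2 Mb Ishikawa had 426 against 22, LNCaP 40 against 37 and T-47D 8 against 2, and over 10 Mb they had 2729 against 260, 510 against 439 and 90 against 60. LNCaP thus had similar counts on both sides or, over 5 Mb, more outside, and the T-47D counts next to the boundary were small.

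**Figure D3:**
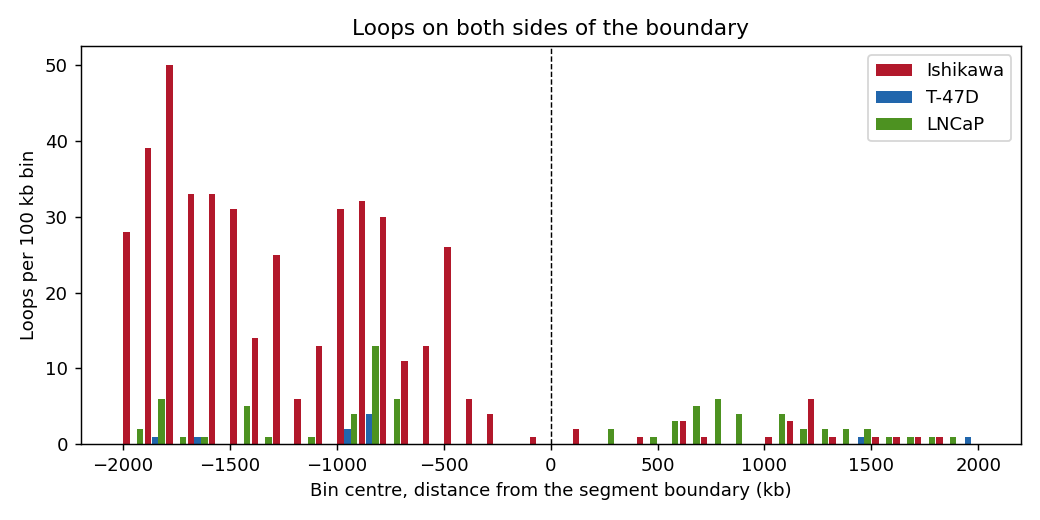
Loops per bin of 100 kb within 2 Mb of the segment boundary, by distance of the bin centre from it in kb, with bars for Ishikawa, T-47D and LNCaP. Ishikawa bars fall from 26 to 6 and then to 4 or fewer about 400 kb before the boundary, while the few T-47D and LNCaP loops lie on both sides.

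The members nearest the limit were weak. The last Ishikawa loop wholly inside joined 72937983 to 72943602 with 72948725 to 72955683, both in TRHDE, by 3 read pairs. The first wholly outside joined intergenic anchors at 73131959 to 73136708 and 73180899 to 73190073, also by 3. A single Ishikawa loop crossed the boundary, from TRHDE (72979757 to 72985967) to an intergenic anchor (73287888 to 73292784), again with 3 read pairs, while LNCaP had 2 such loops and T-47D 0. At 67 whole Mb positions inside the segment, away from the centromere, 4 to 134 Ishikawa loops passed over the position with a median of 28, against 1 at the boundary and a median of 3 at 60 positions outside. In LNCaP the medians were 3 inside and 4 outside, and 2 loops passed over the boundary.

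Inside the segment Ishikawa loops also reached farther. Their median span was 59.5 kb (58.0 to 61) against 30.0 kb (28.3 to 32.1) in the rest of the chromosome. In T-47D the medians were 99.1 kb (90.3 to 106) and 83.1 kb (74.3 to 90.1), and in LNCaP 109 kb (105 to 115) and 114 kb (107 to 121). The medians depended on the read pairs required. At 5 or more they were 29.9 kb inside and 16.0 kb outside in Ishikawa, with 60.3 kb inside in T-47D and 80.3 kb inside in LNCaP. The excess of Ishikawa loops per Mb grew with span. It was 3.14 for loops under 20 kb (52.3 against 16.7 loops per Mb), 6.98 at 50 to 100 kb, 10.4 at 200 to 500 kb and 37.8 at 1 Mb or more, where 87 loops inside stood against 2 outside. The same ratios were between 0.884 and 1.67 in T-47D and between 0.731 and 1.18 in LNCaP.

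**Figure D4:**
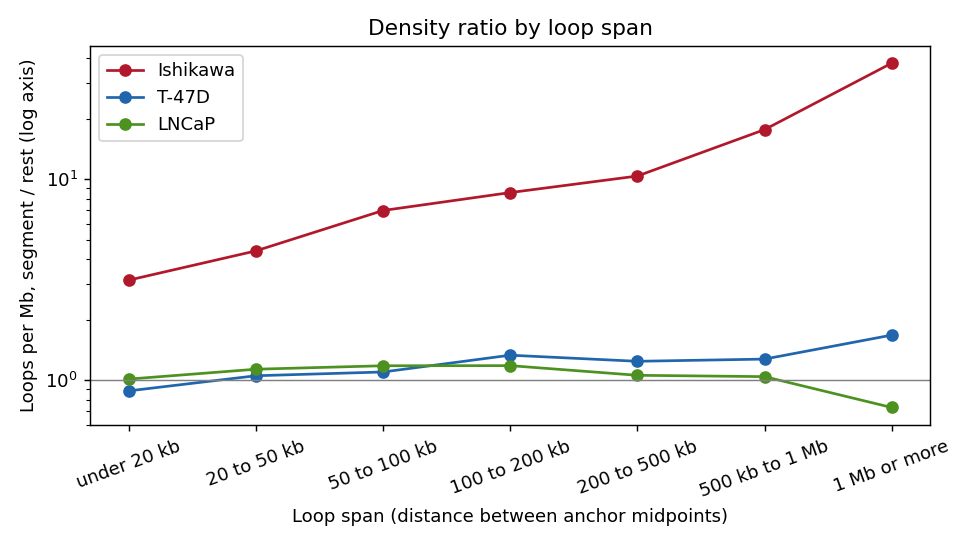
Ratio of loops per Mb in the segment to loops per Mb in the rest of chromosome 12 by loop span, on a log axis, for Ishikawa, T-47D and LNCaP; the grey line marks 1. The Ishikawa ratio climbs from 3.14 to 37.8, where only 2 loops outside remain, and the other lists stay between 0.731 and 1.67.

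Loops of 2 Mb or more numbered 13 inside in Ishikawa, with 3 to 7 read pairs each, and 0 outside. T-47D had 9 inside and 3 outside. The LNCaP list held 0, and its longest loops on chromosome 12 spanned 1947.5 kb inside and 1994 kb outside. Whether that list was limited to shorter spans is not known, so its 0 is not compared. The longest Ishikawa loop spanned 19.3 Mb, from 8225053 to 8228976 to the anchor over BMAL2, and had 3 read pairs in 1 part.

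Support per loop differed less than number. The median was 4 read pairs in Ishikawa on both sides, 5 in T-47D on both sides, and 6 inside and 5 outside in LNCaP. Of the Ishikawa loops, 40.8% inside and 48.0% outside had just the 3 read pairs required, and 22.3% and 15.3% had 10 or more. Of the Ishikawa loops inside, 39.6% were found in 2 or more parts and 6.60% in all 4, against 31.8% and 3.43% outside. The segment was dense in each part. The parts held 8603, 3308, 5876 and 11107 segment loops, or 89.0%, 89.5%, 84.9% and 86.8% of their chromosome 12 loops, with density ratios of 7.05, 7.38, 4.86 and 5.72.

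The larger number of loops came from more anchors and from more partners per anchor. Ishikawa had 4450 anchors in the segment, or 63.7 per Mb against 32.7 outside, and they covered 41.4% of the known bases against 18.7%. An Ishikawa anchor had a mean of 7.89 partners inside and 2.85 outside, and 28.2% against 1.87% of anchors had 10 or more. In T-47D the means were 5.05 and 4.14, and in LNCaP 7.34 and 6.41, with 533 and 1158 anchors inside. A promoter of a protein-coding gene was present in 18.3% of Ishikawa anchors inside and 17.7% outside, although the segment has 9.68 such genes per Mb against 6 outside. In T-47D the shares were 57.0% and 45.5%, and in LNCaP 34.4% and 27%.

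The kinds of Ishikawa loop were alike on both sides. Loops between distal anchors, which hold no promoter, made up 62.8% (62.1 to 63.6) inside and 63.6% (61.9 to 65.4) outside, loops from a promoter to a distal anchor 29% on both sides, and loops between promoters 8.16% and 7.32%. In T-47D, loops between promoters made up 49.1% (46.4 to 51.7) inside and 30.0% (27.3 to 32.9) outside, and in LNCaP 28.8% (27.5 to 30.2) and 19.0% (17.7 to 20.4). The segment was therefore richer in promoter contacts in those lists, but not in Ishikawa beyond the width of its interval.

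The strongest Ishikawa loop of the segment had 150 read pairs and was found in all 4 parts. It joined an anchor over ATN1, C12orf57 and PTPN6 (7044743 to 7067835) to an anchor over PHB2 and EMG1 (7069657 to 7081293). The same region gave the third strongest loop, with 145 read pairs, from ENO2 and ATN1 (7025227 to 7043395). LNCaP joined the same genes by 797 read pairs (7032423 to 7057356 with 7068031 to 7082239), its second strongest loop of the segment. The second Ishikawa loop, with 146 read pairs in 4 parts, joined an anchor over SMIM41 (52499070 to 52528294) to an intergenic anchor (52531430 to 52552675) just outside the keratin cluster. T-47D had its strongest loops in the HOXC cluster, with 191, 183 and 155 read pairs, between HOXC11, the stretch next to it (54373248 to 54378379), HOXC6 and HOXC9. LNCaP had its strongest within RASSF3, with 1093 read pairs (64980897 to 64997847 with 64999858 to 65014778).

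The anchor with the most partners in Ishikawa lay over BMAL2 (27510667 to 27542276), which encodes a circadian transcription factor, and had 55 partners with 542 read pairs. T-47D had no loop there and LNCaP had 1. The next, over MSRB3 (65683054 to 65704951), had 52 partners and no loop in either other list. The third was the intergenic anchor by the keratins (52531430 to 52552675) with 50 partners, and it overlapped anchors with 17 loops in T-47D and 9 in LNCaP. In T-47D the most connected anchor lay over ESYT1, ZC3H10 and the ribosomal protein gene RPL41 (56508691 to 56514247) with 27 partners, where Ishikawa had 25 loops and LNCaP 32. In LNCaP it lay over CDKN1B and APOLD1 (12865888 to 12881004) with 55 partners, where Ishikawa had 20 loops and T-47D 5.

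For each gene, the distal anchors in contact with its promoter were counted. An anchor without any promoter was linked to a gene when a loop joined it to an anchor over a window of 500 bp centred on any of the gene's starts. In Ishikawa 532 of the 676 protein-coding genes of the segment were linked, 78.7% (75.5 to 81.6), against 62.9% (57.8 to 67.7) of the 364 genes in the rest of the chromosome and a background of 52.5% over all 20162 protein-coding genes. In T-47D 34.9% (31.4 to 38.6) of the segment's genes were linked against 49.2% (44.1 to 54.3) outside and a background of 34.7%. In LNCaP 50.9% (47.1 to 54.6) were linked against 64.6% (59.5 to 69.3) outside and a background of 52.4%. The segment's genes were thus at the background in both other lines, and the genes of the rest of the chromosome were above it. At 10 read pairs or more the shares inside fell to 60.7%, 10.9% and 30.2%, and after thinning to the read pairs of T-47D the LNCaP share was 28.4%. Ishikawa links chose the segment in part, and nothing further is read from its share.

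Among linked genes the median number of distal anchors was 7.5 in Ishikawa inside against 3 outside, 2 and 2 in T-47D, and 4 and 4 in LNCaP. In Ishikawa 27.1% of the segment's genes had 10 or more, against 1.37% outside. The number was higher in Ishikawa than in either other list for 406 of 676 genes (60.1%) inside and 87 of 364 (23.9%) outside. Of the 676 genes, 193 were linked in all 3 lists, 185 in Ishikawa alone, 19 in LNCaP alone and 3 in T-47D alone, and 113 in none. These patterns were counted for the segment only, so they have no background. The 185 also depend on the high Ishikawa share of 78.7%, which is tied to how the segment was chosen. LNCaP had 50.9% and T-47D 34.9%. A loop below 3 read pairs is absent from each list. In T-47D, from 1 sample, 0 therefore means only that no loop reached that count. Where a list merges samples or parts, as in Ishikawa, the minimum may have held in each of them. A contact of 3 or more read pairs in sum could then be absent.

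The 5 genes that led in Ishikawa by linked distal anchors had few or none in the other lists. MSRB3 (ENSG00000174099, 65672423 to 65885210, plus strand), which repairs oxidised methionine, had 52 linked anchors with 584 read pairs in Ishikawa and no anchor over its promoters in T-47D or LNCaP. The parts gave 38, 12, 12 and 38 of these anchors. They reached up to 878 kb from its first start, and the strongest link, with 45 read pairs, was to an anchor within the gene (65751584 to 65763886). BMAL2 (27485769 to 27578222, plus strand) had 41 linked anchors with 411 read pairs, with 24, 8, 18 and 30 in the parts, and 0 in T-47D and LNCaP. It was joined most strongly to an intron of its own (27492624 to 27496507), by 66 read pairs. NELL2 (44902058 to 45315631, minus strand), which encodes a secreted glycoprotein of neurons, had 38 with 359 read pairs, and GRIP1 (66741211 to 67462942, minus strand), a scaffold protein of glutamate receptors, had 32 with 327. Both had 0 in the other lists. FBXL14 (1675159 to 1703747, minus strand), a substrate receptor of a ubiquitin ligase, had 36 linked anchors with 412 read pairs in Ishikawa, 1 with 4 in T-47D and 6 with 51 in LNCaP. Its strongest Ishikawa links, with 48 read pairs each, were to anchors in WNT5B at 1665596 to 1672728 and 1709084 to 1715862, on either side of its own start.

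The stretches just before the starts of BMAL2 and FBXL14 are shown because BMAL2 was linked in Ishikawa alone and FBXL14 in every list. They are the 250 bases before a RefSeq start, placed on GRCh37 by an exact match, and capitals mark CpG, the dinucleotide that is dense in promoters of widely used genes.

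BMAL2 (chr12:27485519-27485768, plus strand): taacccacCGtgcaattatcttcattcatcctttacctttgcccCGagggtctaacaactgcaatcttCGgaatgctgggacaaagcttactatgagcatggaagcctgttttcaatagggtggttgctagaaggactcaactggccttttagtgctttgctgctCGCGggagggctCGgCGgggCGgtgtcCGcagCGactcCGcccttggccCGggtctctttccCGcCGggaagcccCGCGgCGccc

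FBXL14 (chr12:1704009-1704258, minus strand): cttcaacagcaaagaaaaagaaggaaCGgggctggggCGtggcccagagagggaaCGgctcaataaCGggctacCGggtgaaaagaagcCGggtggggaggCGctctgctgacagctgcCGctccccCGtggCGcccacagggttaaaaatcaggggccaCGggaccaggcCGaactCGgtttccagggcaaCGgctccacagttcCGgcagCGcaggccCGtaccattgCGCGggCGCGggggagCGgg

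The BMAL2 stretch held 17 CpG and that of FBXL14 held 22, against a median of 11 over 35116 RefSeq promoters, of which 39.0% held 17 or more and 28% held 22 or more. A further RefSeq start of FBXL14, nearer to its body, had 40 CpG in the 250 bases before it, which also lay in an anchor of each list. The first lay in an Ishikawa anchor and in none of T-47D or LNCaP, and the second lay in an anchor of each list.

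The genes leading in the other lists were linked in Ishikawa as well. In T-47D they were KRT80 with 10 linked anchors, KRT7 and KRT86 with 9 each, ARID2 with 8 and HOXC6 with 7, a number that HOXC9 and HOXC11 also had with fewer read pairs. Ishikawa had 10, 17, 17, 15 and 4 at these genes, and LNCaP 0, 0, 0, 24 and 16. The first 3 are keratin genes, of which KRT7 and KRT86 overlap and were joined to the same anchor most strongly in Ishikawa (52647039 to 52656421). In LNCaP the leading genes were CDKN1B, which encodes the cell-cycle inhibitor p27, and APOLD1, its neighbour, with 36 linked anchors each, which share an anchor and so much of that count. They were followed by RASSF3 with 27, ARID2, a chromatin remodelling subunit, with 24, and MRPS35, of the mitochondrial ribosome, with 20. Ishikawa had 16, 16, 14, 15 and 10 at these 5 genes and T-47D 1, 3, 2, 8 and 1. RASSF3 differed most in read pairs, with 2307 in LNCaP, 137 in Ishikawa and 36 in T-47D.

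**Figure D5:**
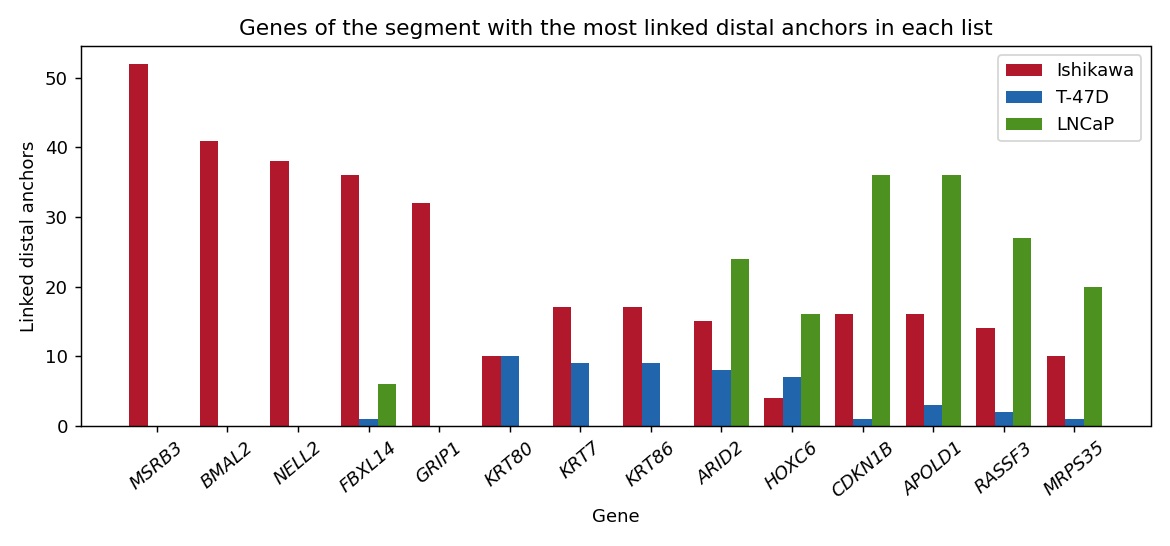
Linked distal anchors of the genes that had the most in each list, as bars for Ishikawa, T-47D and LNCaP; ARID2 is among the first 5 of both T-47D and LNCaP and is drawn once. MSRB3, BMAL2, NELL2 and GRIP1 have bars in Ishikawa alone, and CDKN1B and APOLD1 reach 36 in LNCaP.

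The gene groups that follow are read against the shares of all segment genes that were linked, 78.7%, 34.9% and 50.9% in Ishikawa, T-47D and LNCaP, in that order. Their read pairs are sums over genes, so a loop from an anchor over several promoters is counted once for each gene.

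Genes chosen for growth and the cell cycle, with others such as GAPDH, RAD52 and CPM among them, were linked on both arms. Of 16 genes of the long arm known from amplified regions of tumours, 13 were linked in Ishikawa, against 11 in T-47D and 12 in LNCaP, with 1454, 196 and 470 read pairs. These are 81.25%, 68.75% and 75% of the group, so the Ishikawa share was near that of all segment genes and the others were above it. HMGA2, an architectural chromatin protein, had 31 linked anchors (314 read pairs) in Ishikawa and none in T-47D or LNCaP, and CPM, a membrane carboxypeptidase, 24 with 454 and again 0. MDM2, the ubiquitin ligase that degrades p53, had 5 with 32 read pairs in Ishikawa, 2 with 30 in T-47D and 3 with 109 in LNCaP. CDK4 is a kinase that drives entry into the cell cycle. It had no linked anchor in Ishikawa, 3 with 12 read pairs in T-47D and 4 with 14 in LNCaP. Its promoter lay in 1 Ishikawa anchor, whose loops, with 39 read pairs, all led to anchors that hold promoters. Of 16 genes of the short arm, 14 were linked in Ishikawa, against 5 in T-47D and 12 in LNCaP, with 891, 67 and 882 read pairs. At 87.5%, 31.25% and 75%, the T-47D share lay just below that of all segment genes and the others above. ETV6, a transcription factor, had 18, 3 and 14 linked anchors, and CCND2, a cyclin of the cell cycle, had 4, 0 and 0.

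Receptors and chromatin regulators, with the transcription factors SP1, SP7, ATF1 and TFCP2 counted among them, were linked in most lists. All 15 of that group were linked in Ishikawa, against 12 in T-47D and 13 in LNCaP, with 1395, 468 and 1166 read pairs, and these shares of 100%, 80% and 86.7% were above 78.7%, 34.9% and 50.9% of all segment genes. HDAC7, a histone deacetylase, had 15, 4 and 3 linked anchors, and VDR, the vitamin D receptor, 12, 3 and 4. In the WNT pathway group 3 of 6 genes were linked in Ishikawa, against 0 in T-47D and 2 in LNCaP, so the shares of 50%, 0% and 33.3% were below those of all segment genes. The ligand WNT5B had 21 with 202 read pairs in Ishikawa, 0 in T-47D and 7 with 74 in LNCaP, the coreceptor LRP6 had 9, 0 and 2, and the secreted inhibitor WIF1 had 8, 0 and 0. WNT1, WNT10B and LGR5, a receptor of stem cells, had no linked anchor in any list.

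The gene clusters of the segment differed from each other. In the HOXC cluster 5 of 9 genes were linked in each list, with 255 read pairs in Ishikawa, against 1057 in T-47D and 634 in LNCaP. The share of 55.6% was below that of all segment genes in Ishikawa (78.7%) and above it in T-47D (34.9%) and LNCaP (50.9%). A single T-47D anchor lay over both HOXC6 and HOXC9, so part of the T-47D sum was counted more than once. HOXC6 had 4 linked anchors with 50 read pairs in Ishikawa, 7 with 407 in T-47D and 16 with 191 in LNCaP. HOXC11 had 7 with 285 in T-47D and no anchor in Ishikawa or LNCaP. Among 27 keratin genes 14 were linked in Ishikawa, against 4 in T-47D and 3 in LNCaP, with 2143, 410 and 355 read pairs, and the shares of 51.9%, 14.8% and 11.1% were all below those of all segment genes (78.7%, 34.9% and 50.9%). KRT8, a keratin of simple epithelia, had 17, 5 and 14 linked anchors, and KRT18, its partner, had 10, 0 and 5. KRT82 had the most of the group in Ishikawa, 19, and 0 in both others. KRT5, a keratin of basal cells, had 18 in Ishikawa and 0 in both others, while KRT6A and KRT6B had 0 in every list.

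Receptor families of other cell types had shares of linked genes below those of all segment genes (78.7%, 34.9% and 50.9%), a difference that was not tested. Of 18 genes of the natural killer complex region, which include lectin-like receptors of other immune cells and of endothelium, 11 were linked in Ishikawa, against 3 in T-47D and 5 in LNCaP, or 61.1%, 16.7% and 27.8%. CLEC9A, a receptor of dendritic cells, had 14 linked anchors with 129 read pairs in Ishikawa and 0 in both others, and CLEC2B had 13 with 95 and again 0. Of 14 bitter taste receptors 9 were linked in Ishikawa, against 1 in T-47D and 1 in LNCaP, or 64.3%, 7.14% and 7.14%, and TAS2R7 had 13 with 89 read pairs in Ishikawa alone. Members of these families, and keratins such as KRT6A and KRT6C, are near copies that can share reads and can lie in 1 anchor, as TAS2R8 and TAS2R9 did with 3 linked anchors and 25 read pairs each, so their single values are uncertain. Links are contacts, and expression was not measured by these lists.

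Chosen genes on either side of the boundary are given next, and they are not all the genes there. Of 11 chosen genes within 4 Mb inside, 9 were linked in Ishikawa, against 4 in T-47D and 8 in LNCaP, with 1015, 23 and 219 read pairs, or 81.8%, 36.4% and 72.7% against 78.7%, 34.9% and 50.9% of all segment genes. Of 9 chosen genes within 4 Mb outside, 5, 5 and 7 were linked, with 81, 147 and 683 read pairs. These are 55.6%, 55.6% and 77.8%, against 62.9%, 49.2% and 64.6% of all genes in the rest of the chromosome. PTPRR, a receptor tyrosine phosphatase, had 30 linked anchors with 331 read pairs in Ishikawa, 0 in T-47D and 2 with 24 in LNCaP. TSPAN8, a tetraspanin of epithelial cells, had 21, 0 and 1, and ZFC3H1, a factor of nuclear RNA decay, 17, 1 and 6. The other chosen genes inside had 0 to 11 linked anchors in Ishikawa, while CPM and YEATS4, which also lie within these 4 Mb, had 24 and 13, and TRHDE, at the step, had 2 with 3 read pairs each. Outside, KCNC2, a potassium channel, had 6 in Ishikawa, against 0 in T-47D and 17 in LNCaP. PHLDA1, of the pleckstrin homology family, had 1, 9 and 0, and OSBPL8, a lipid transfer protein, 4, 0 and 16. The other chosen genes outside had 0 to 2 in Ishikawa.

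Loops of the other lists were then looked for in Ishikawa, a measure that rests on both lists. A loop was found when both anchors overlapped those of 1 loop of the other list by 1 bp or more. Of the T-47D loops of the segment 27.3% (25.0 to 29.7) were found in Ishikawa, against 7.81% (6.32 to 9.62) of those outside, and of the LNCaP loops 20.2% (19.1 to 21.5) against 6.13% (5.37 to 7). T-47D loops were found in LNCaP alike on both sides, at 41.3% (38.7 to 44) and 36.6% (33.7 to 39.6). In the other direction 1.88% of Ishikawa loops inside and 2.33% outside were found in T-47D, and 4.35% and 6.65% in LNCaP. With a stricter rule, under which 50% of both anchors had to overlap, 0.967% (0.566 to 1.65) of T-47D loops inside and 0.391% (0.152 to 1.00) outside were found in Ishikawa, and 1.79% (1.43 to 2.23) and 0.774% (0.529 to 1.13) of LNCaP loops. The intervals inside and outside then overlapped for T-47D and stayed apart for LNCaP. By the same rule 16.4% of T-47D loops inside and 16.1% outside were found in LNCaP. An anchor less than 50% as wide as the other cannot meet this rule. The stricter shares therefore depend on anchor width too, and nothing is read from their fall. Ishikawa anchors were wider, with a median width inside of 5.32 kb, where T-47D anchors had 2.64 kb and LNCaP anchors 3.25 kb. They covered 41.4% of bases inside and 18.7% outside, and the part of width and cover in the shares was not tested.

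Single anchors overlapped more often. Of the T-47D anchors of the segment 78.0% (74.3 to 81.4) overlapped an Ishikawa anchor, against 48.1% (43.7 to 52.5) outside, and of the LNCaP anchors 66.1% (63.4 to 68.8) against 38.5% (35.6 to 41.5). T-47D anchors overlapped a LNCaP anchor in 62.9% (58.7 to 66.8) inside and 59.4% (55.0 to 63.6) outside. Ishikawa anchors covered 41.4% of bases inside and 18.7% outside, and the part of that cover in these shares was not tested.

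Because the Ishikawa samples included estradiol treatment, the palindrome GGTCANNNTGACC, the full estrogen response element that the estrogen receptor binds as a dimer, was looked up in chromosome 12. It reads the same on both strands, so 1 search covers both. The segment held 46 matches and the rest of the chromosome 53, and 14 of 35116 RefSeq promoters (0.0399%) held one. In Ishikawa 22 of 46 matches inside lay in an anchor, 47.8% (34.1 to 61.9) against 41.4% of bases covered, and 14 of 53 outside, 26.4% (16.4 to 39.6) against 18.7%. In T-47D and LNCaP 2 of 46 matches inside lay in an anchor, 4.35% (1.20 to 14.5) each, where anchors covered 2.14% and 6.38% of bases. Outside, T-47D had 4 of 53, 7.55% (2.97 to 17.9) against 2.30% covered, and LNCaP 2 of 53, 3.77% (1.04 to 12.8) against 6.36%. The intervals included the share of bases covered except that of T-47D outside, which rests on 4 matches. A match is a stretch of letters and not a bound site. Other matches had more loops, such as an intergenic match at 834462 to 834474 whose anchor had 27 in Ishikawa. The following, with 24 bases on each side and the match in capitals, are examples whose anchors had many loops or lay in several lists. They were chosen after their values were seen and are not the first by any rank.

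In an intron of MSRB3 (chr12:65788352-65788412, plus strand): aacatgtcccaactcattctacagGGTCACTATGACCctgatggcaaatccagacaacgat

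In an intron of SOX5 (chr12:24060755-24060815, plus strand): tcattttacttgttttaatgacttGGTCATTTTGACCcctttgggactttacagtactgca

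Intergenic, linked to SLC38A1 and SLC38A2 (chr12:46887651-46887711, plus strand): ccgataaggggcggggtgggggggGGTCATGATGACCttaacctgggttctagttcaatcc

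The first lay in an Ishikawa anchor with 17 loops that was linked to MSRB3, and in no anchor of the other lists. The anchor of the second, in a gene for a developmental transcription factor, had 24 Ishikawa loops and no linked gene. The third had only 2 loops in Ishikawa, with no linked gene, but 10 in T-47D and 22 in LNCaP, where its anchors were linked to the amino acid transporter genes SLC38A1 and SLC38A2 and, in LNCaP, to ARID2.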

How the data were processed

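H3K27ac HiChIP loop lists of 3 cell lines were analysed on hg19. The authors aligned reads with HiC-Pro, called loops with hichipper and removed loops with fewer than 3 reads or a false discovery rate of 0.05 or more. The deposited value of a loop is a count of read pairs, not scaled for depth; versions, and how the 2 LNCaP samples were merged, are not given in the sources used here. Loops of Ishikawa were pooled over treatments by the authors.

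Read pairs were summed over rows with the same anchors. Densities were per Mb of known GRCh37 sequence (69.8 Mb in the segment and 60.6 Mb in the rest). Shares have 95% Wilson intervals, and medians 95% binomial order-statistic intervals. Genes were the 20162 protein-coding genes of GENCODE lifted to GRCh37, with promoters of 500 bp centred on each start. Genes named were the 5 with the most linked distal anchors per list, and 2 or more members of each gene list. Others lay at the 3 strongest loops, at the most connected anchors or, as chosen genes, within 4 Mb of the boundary. The sequences printed, and the genes beside the matched elements, were chosen after their values were seen. The members and lists were chosen with earlier results of these data known. Scripts ran under Python 3.11.15 with pandas 2.3.3, NumPy 2.4.6 and SciPy 1.17.1, and were tested on simulated data. Alternatives were other minima of read pairs, thinning, a range of spans, loops in 2 or more parts, wider promoters and stricter overlap. With 1 list per line no test was run. Some items are not reported here.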

Additional observations from a re-analysis of the deposited data

Results flagged for a closer look

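The T-47D list held 70 pairs of anchors on different chromosomes, which enter no comparison, and 7 of them, with 38 read pairs in all, had an end in the segment. They are listed because some had more than the 3 read pairs that the lists required. An anchor in RERG on chromosome 12 (15262329 to 15266318) was joined to chromosome 3 by 12 read pairs (192608069 to 192611600), by 6 (192614357 to 192616035) and by 6 (192633692 to 192636960). A neighbouring anchor in RERG (15290289 to 15293117) was joined to the first of these chromosome 3 anchors by 5 read pairs. The other 3 pairs had 3 read pairs each. The Ishikawa and LNCaP lists held no pair across chromosomes. Whether those lists kept such pairs is not known, so their 0 is not compared.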

How the results depend on the processing

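No paired analysis was possible because each list pools its samples and no column tells replicates apart, and no replicate could be left out for the same reason. A value was taken as moved when it left the 95% interval of the value in the report. The Ishikawa share of chromosome 12 loops inside the segment moved from 86.1% to 88.3% at 5 read pairs or more, 90.1% at 10 or more, 88.8% after thinning to the read pairs of the T-47D list, 88.4% for spans of 20 kb to 1 Mb and 88.5% for loops in 2 or more parts. The LNCaP share moved from 55.9% to 57.9%, 60.3% and 59.4% under the first 3 of these. The T-47D share did not leave its interval.

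Median spans in the segment depended on support. In Ishikawa the median of 59.5 kb became 29.9 kb at 5 read pairs or more, 20.6 kb at 10 or more, 27.5 kb after thinning and 28.2 kb for loops in 2 or more parts, with 16.0, 12.5, 15.4 and 15.5 kb in the rest of the chromosome. T-47D fell to 60.3 and 33.8 kb at both minima, and LNCaP to 80.3 and 50.3 kb and to 52.9 kb after thinning, which put it below the T-47D median. The share of linked genes in Ishikawa became 73.1% at 5 read pairs or more, 60.7% at 10 or more, 68.8% after thinning and 82.1% with promoters of 2 kb. In T-47D it became 23.5% and 10.9%, and in LNCaP 42.5%, 30.2% and, after thinning, 28.4%, below T-47D. Loops found in Ishikawa fell to 0.967% of T-47D loops and 1.79% of LNCaP loops with overlap of 50% of both anchors. At 10 read pairs or more they were 24.8% and 18.2%, and at 5 or more 18.5% of LNCaP loops. The cause of these moves was not tested. Read pairs in the lists limit all values, since T-47D, from 1 sample, had the fewest.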
